A study of Mus musculus with 15 samples.

Results

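Myocardial infarction was compared with sham surgery in the left ventricle of mice that received only the vehicle, by poly-A RNA sequencing of 5 MI and 5 Sham libraries. Of the 54532 genes in the table, the 12110 that reached 1 FPKM or more in at least 5 of these 10 libraries were tested. Of these, 174 reached it in the MI libraries alone and 62 in the Sham libraries alone, so their groups had to differ; such genes are given by their values and log2 difference, with no p. FPKM is the number of fragments per kilobase of gene length, scaled here to a typical gene of each library. Differences are given on the scale log2(FPKM + 1), MI minus Sham, which understates the change of genes at low values. A gene was called, and is said to have risen or fallen, at a Benjamini-Hochberg adjusted p under 0.05 in limma.

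All animals were female C57BL/6JRj mice of 20 to 22 g, aged 12 to 18 weeks, with no transgene named in the labels. In the MI group the left descending coronary artery was tied off permanently, so the tissue was not reperfused. In the Sham group the animals had a sham operation, which the labels do not describe further. The protocols give vehicle injections to control mice in general, and the Sham libraries are taken as vehicle treated on that basis. The vehicle was a 20% solution of Captisol, a cyclodextrin, given by daily intraperitoneal injection between 6 h and day 7 after surgery, and ventricles were taken on day 8. RNA of 2 animals was mixed in each of Sham replicates 1 and 2, and the other 8 libraries carry a single animal number. The number S5 stands both in the name of the mixed Sham replicate 2 and in that of MI replicate 3, and the labels do not say whether these are separate numberings. The labels do not say whether scar, border or remote muscle was taken. The series also holds 5 infarcted, inhibitor-treated libraries, which are not used here. The p-values measure the spread between these libraries.

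After a coronary artery is closed, the muscle it fed dies, and neutrophils and then macrophages clear the debris. Resident fibroblasts become activated, divide and lay down a collagen scar, while surviving cardiomyocytes around it carry a higher load and turn on genes of the fetal and stressed heart. The adult cardiomyocyte draws most of its energy from fatty acid oxidation in mitochondria, under the control of nuclear receptors.

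Fragments counted on genes ranged from 21.5 M to 26.8 M per library, and a single fragment per kb was worth 0.0357 to 0.0478 FPKM. On the first principal component of the tested genes, with 63.4% of the variance, the Sham libraries scored from -35.9 to -25.2 and the MI libraries from 11.9 to 52.2. Mitochondrially encoded genes made up 41.2% to 42.2% of the FPKM total in Sham, 40.6% in MI replicate 4 and 23.2% to 27.6% in the other MI libraries. Markers of atrial muscle were present in unequal amounts. Myl7, the atrial regulatory light chain, measured 209.9, 103, 749, 577 and 59.0 FPKM in Sham and 402, 54.9, 3.89, 111 and 3.35 in MI, always in the order of replicates 1 to 5. It was high in Sham replicates 3 and 4 and in MI replicate 1, and the groups overlapped. Bmp10, a ligand made by atrial myocytes, stood at 94.9 FPKM in Sham replicate 4 and at no more than 0.0401 FPKM elsewhere. The ventricular light chain Myl2 was present at 1373 FPKM or more in every library. The part of atrial tissue in the results was not tested beyond the values given here, which come from a fit with the log2 level of Myl7 as a covariate and from the 5 libraries with a Myl7 share of Myl7 plus Myl2 under 5%, namely Sham replicates 2 and 5 and MI replicates 2, 3 and 5.

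Infarction raised 2486 genes, 20.5% of those tested, and lowered 2524, or 20.8%. These and the other totals over all tested genes include the 174 and 62 genes that passed the filter through a single group and had to differ. A change of at least 2-fold on this scale was found for 465 raised genes (3.84% of those tested) and 304 lowered genes (2.51%). Whether or not the gene was called, all 5 MI libraries lay above all 5 Sham libraries in 15.3% of tested genes and below them in 14.5%. Groups of called genes could still overlap: this held for 680 raised and 818 lowered genes. The median difference over all tested genes was -0.02. With the mitochondrially encoded genes left out and library totals equalised, 2960 genes rose and 1819 fell, so the share of calls that were rises went from 49.6% to 61.9%, and the median moved to 0.06. In the 5 libraries low in Myl7, 1081 genes rose and 821 fell, and in the fit with the Myl7 covariate 1848 rose and 1799 fell. Percentages given for the gene lists below are to be read against the 20.5% that rose and 20.8% that fell among all tested genes. List counts in the 5 libraries low in Myl7 are to be read against the 1081 rises and 821 falls there. That fit used the same 12110 genes but only 5 of the 10 libraries, and called fewer genes throughout.

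The largest rise belonged to Sprr1a (ENSMUSG00000050359, chromosome 3, 92483952 to 92485895 on mm10), a small proline-rich protein of the epithelial cell envelope that stressed cardiomyocytes also make. It measured 0.224, 0.648, 0.0566, 0.643 and 0 FPKM in Sham and 4.85, 115, 34.4, 32.0 and 26.0 in MI (log2 difference 4.51 ± 0.59). The gene was under 1 FPKM in every Sham library and passed the filter through MI alone. MI replicate 2 was the highest and MI replicate 1 the lowest of the infarcted ventricles. Nmrk2 (ENSMUSG00000004939, chromosome 10, 81198170 to 81202051 on mm10), a muscle kinase that makes NAD from nicotinamide riboside, measured 8.92, 4.75, 4.38, 8.04 and 4.48 FPKM in Sham and 28.3, 281, 138, 244 and 84.6 in MI (log2 difference 4.12 ± 0.53 SE, adjusted p = 0.000186). The lowest MI library, replicate 1, was still above the highest Sham library. Nppb (ENSMUSG00000029019, chromosome 4, 147985788 to 147987205 on mm10), the precursor of the B-type natriuretic peptide released by stretched muscle, measured 309.6, 281, 88.3, 91.3 and 10.2 FPKM in Sham and 403, 1383, 1172, 1607 and 428 in MI (log2 difference 3.15 ± 0.81 SE, adjusted p = 0.00974). Here the Sham libraries themselves differed widely: the mixed replicates 1 and 2 were high, replicate 5 was low, and the groups did not overlap. Ankrd1, a stretch-responsive protein of the sarcomere and nucleus, also had its highest Sham values in replicates 1 and 2, at 648, 692, 310.2, 236 and 143 FPKM in Sham and 1509.9, 2765, 2671, 2986 and 1997 in MI (log2 difference 2.75 ± 0.41 SE, adjusted p = 0.000442).

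The promoters of Sprr1a and Ankrd1 are shown because both genes are stress-induced in cardiomyocytes and lead the rises on the log2 and on the FPKM scale. They are RefSeq sequences of GRCm38.p6, written 5′ to 3′ on the gene's strand and ending at the base before the RefSeq start. The Sprr1a stretch is chr3:92485882-92486041 on the minus strand, where capitals mark the AP-1 motif TGANTCA and the core promoter box TATAAA. The Ankrd1 stretch is chr19:36119845-36120059 on the minus strand, where capitals mark the TEAD motif GGAATG. Motifs were searched on both strands.
Sprr1a: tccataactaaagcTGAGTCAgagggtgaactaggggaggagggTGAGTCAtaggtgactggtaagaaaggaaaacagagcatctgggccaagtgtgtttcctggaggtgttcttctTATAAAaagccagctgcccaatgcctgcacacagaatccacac
Ankrd1: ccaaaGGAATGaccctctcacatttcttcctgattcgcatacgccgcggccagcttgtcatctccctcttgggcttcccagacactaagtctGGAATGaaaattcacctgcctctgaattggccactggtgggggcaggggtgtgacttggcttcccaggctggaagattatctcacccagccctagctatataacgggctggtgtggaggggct
Sprr1a carried 2 AP-1 matches and Ankrd1 2 TEAD matches. Among the 32544 different promoter windows of the RefSeq table, each from 250 bases before to 50 bases after a start, 7.79% held TGANTCA, 14.6% held GGAATG and 13.6% held TATAAA on either strand. A match describes these letters and shows no binding. Promoters could be matched for 79.7% of the protein-coding genes tested but only 72.2% of those at least 2-fold higher, so no share of motifs was compared between gene sets.

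Other large rises were secreted or matrix proteins. Cthrc1 (ENSMUSG00000054196, chromosome 15, 39076932 to 39087121 on mm10), a collagen-binding secreted protein of activated fibroblasts, measured 0.141, 0.606, 0.544, 0.770 and 0.116 FPKM in Sham and 8.60, 73.9, 73.5, 41.0 and 3.14 in MI (log2 difference 4.13 ± 0.72). It too passed the filter through MI alone, and MI replicates 2 and 3 were the highest. Timp1, an inhibitor of matrix metalloproteases, rose from 5.35 ± 1.66 to 122 ± 94.3 FPKM (mean ± SD, n = 5, as for all means below; log2 difference 4.02 ± 0.43 SE, adjusted p = 8.18e-05). Serpina3n, a protease inhibitor of the acute phase, rose from 5.86 ± 1.33 to 104 ± 68.5 FPKM (log2 difference 3.65 ± 0.44). Col8a1, a short-chain collagen, rose by 3.25, Fn1, fibronectin, by 3.0, and Wisp2, a secreted matricellular protein, by 2.99 on the log2 scale. In absolute FPKM the largest rises after Ankrd1 and Nppb included Clu, the extracellular chaperone clusterin, from 144 to 630.0 FPKM, and Sparc, a collagen-binding matricellular protein, from 95.2 to 563 FPKM. Nppa, the atrial natriuretic peptide, also rose (log2 difference 2.51 ± 0.83, adjusted p = 0.0314), but its libraries measured 180.3, 90.2, 356, 862 and 25.6 FPKM in Sham and 819, 2022, 1317, 1363 and 275 in MI. The groups overlapped, Sham replicate 4 being the highest of its group and above MI replicates 1 and 5. The Nppa difference was 3.52 (adjusted p = 0.0144) with the Myl7 covariate and 4.20 (adjusted p = 0.0371) in the 5 libraries low in Myl7. The call was lost without any single one of Sham replicates 1, 2 and 5 or MI replicates 2, 3 and 4, at adjusted p = 0.0534, 0.0705, 0.0615, 0.0687, 0.0667 and 0.0612.

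The largest fall belonged to Ces1d, an esterase of fat stores (ENSMUSG00000056973, chromosome 8, 93166068 to 93197838 on mm10). It measured 58.1, 71.1, 80.4, 90.5 and 127 FPKM in Sham and 21.1, 1.10, 3.82, 4.26 and 4.65 in MI (log2 difference -3.84 ± 0.49 SE, adjusted p = 0.000181). Every MI library was below every Sham library, and MI replicate 1 was the nearest to Sham. Cytl1, a small secreted protein first known from cartilage and marrow, measured 46.7, 41.8, 60.3, 31.8 and 28.7 FPKM in Sham and 8.64, 1.72, 3.14, 6.79 and 16.0 in MI (log2 difference -2.61 ± 0.42 SE, adjusted p = 0.000741). MI replicate 5 was the nearest to Sham in this gene. Inmt, a methyltransferase acting on indoleamines, measured 4.22, 4.87, 8.99, 4.10 and 9.80 FPKM in Sham and 0.745, 0.379, 0.0228, 0.299 and 0.703 in MI (log2 difference -2.32 ± 0.24). All infarcted ventricles were under 1 FPKM, so the gene passed the filter through Sham alone. Rpl3l (ENSMUSG00000002500, chromosome 17, 24727820 to 24736143 on mm10), the ribosomal protein that takes the place of Rpl3 in striated muscle, measured 150.0, 187, 136, 157 and 171 FPKM in Sham and 72.2, 10.5, 32.6, 27.3 and 58.3 in MI (log2 difference -2.22 ± 0.40 SE, adjusted p = 0.00141). MI replicate 2 had the lowest value and MI replicate 1 the highest of the infarcted group. Further falls without overlap included Efnb3, a membrane-bound ephrin ligand, from 34.9 to 9.03 FPKM (log2 difference -2.11 ± 0.40), and Mylk4, a myosin light chain kinase of the heart, from 24.6 to 6.22 FPKM (-1.98 ± 0.33). Acot1, which splits long-chain acyl-CoA, fell from 6.52 to 0.935 FPKM (-1.97 ± 0.16). Retnla, a secreted protein of alternatively activated macrophages, fell from 10.1 to 1.21 FPKM (-2.17 ± 0.39). Kcnv2, a modifier subunit of potassium channels, measured 2.40, 3.30, 3.95, 3.52 and 4.99 FPKM in Sham and 0.598, 0.0280, 0.171, 0.131 and 0.213 in MI (log2 difference -1.91 ± 0.15). Adra1a, the alpha-1A adrenergic receptor, measured 2.72, 2.69, 2.63, 2.46 and 2.39 FPKM in Sham and 0.892, 0.442, 0.397, 0.652 and 0.489 in MI (log2 difference -1.19 ± 0.09). Both genes were under 1 FPKM in all infarcted ventricles and passed the filter through Sham alone.

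**Figure D1:**
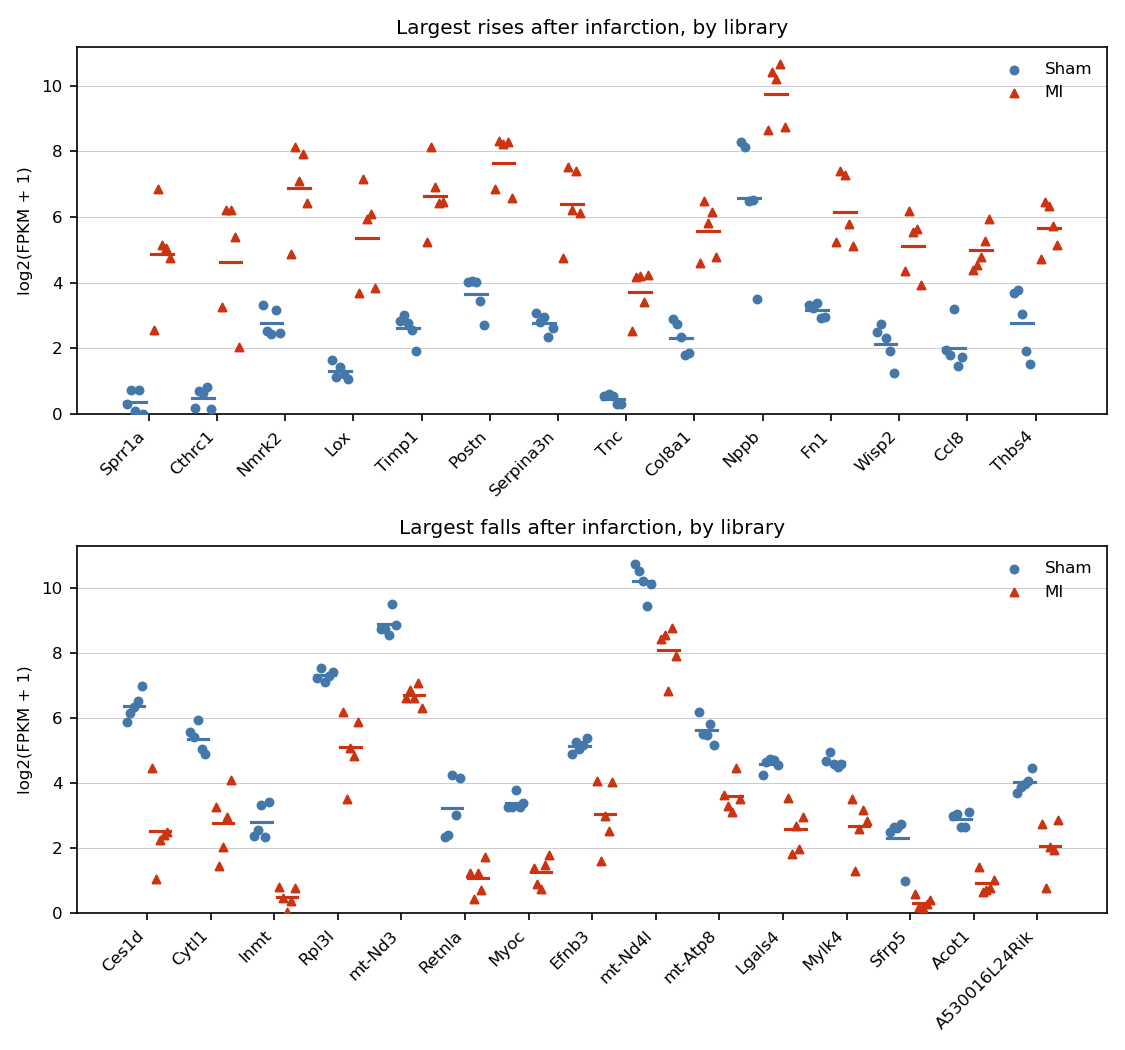
Level of genes with the largest called rises (top) and falls (bottom) without overlap, as log2(FPKM + 1), with one point per library, Sham as circles and MI as triangles, and a bar at each group mean. All MI points lie above the Sham points of the same gene in the top panel and below them in the bottom panel; for Nppb the Sham points themselves spread from 10.2 to 309.6 FPKM.

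Markers of cell types, known from other work, were then counted. In bulk tissue, fewer cells of a type and less RNA per cell cannot be told apart. Of the activated fibroblast markers, 12 rose and 0 fell of 13 tested members (median log2 difference 2.82), and 9 rose in the 5 libraries low in Myl7. Of these 13 members, 2 had passed the filter through the MI libraries alone and had to differ, and 10 of the other 11 rose. Postn, which encodes periostin of activated fibroblasts, measured 15.2, 15.6, 15.3, 9.89 and 5.56 FPKM in Sham and 114, 316, 298, 314 and 93.8 in MI. MI replicates 2, 3 and 4 were alike, and replicates 1 and 5 were lower but far above Sham. Acta2, smooth muscle actin, which also marks myofibroblasts, was the member that was not called (log2 difference -0.19 ± 0.29, adjusted p = 0.626). The summed level of the list was 217 to 249 FPKM in Sham and 674 to 1862 in MI, without overlap.

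Resting fibroblast markers split: 6 rose and 2 fell of 16 tested members, against 3 and 2 in the 5 libraries low in Myl7. Gsn (ENSMUSG00000026879, chromosome 2, 35256380 to 35307892 on mm10), the actin-severing protein gelsolin, which cardiac fibroblasts hold in large amounts, measured 807, 797, 1072, 739.7 and 894 FPKM in Sham and 437, 178, 205, 311 and 389.8 in MI (log2 difference -1.57 ± 0.25 SE, adjusted p = 0.000588). It was lower in every MI library. The list's summed level was 1355 ± 184 FPKM in Sham and 994 ± 125 in MI, of which Gsn made up 862 FPKM in Sham and 304 in MI. Scara5, a ferritin receptor of resting stromal cells, fell from 6.36 ± 1.88 to 2.08 ± 1.07 FPKM (-1.28 ± 0.23). Mfap5, a protein of elastic microfibrils, measured 13.0, 9.78, 11.9, 7.05 and 6.63 FPKM in Sham and 41.2, 83.3, 77.8, 102 and 38.0 in MI (log2 difference 2.64 ± 0.29 SE, adjusted p = 8.68e-05). It was high in all infarcted ventricles and highest in MI replicate 4. Pdgfra and Dcn, broad fibroblast markers, were not called, with log2 differences of 0.14 ± 0.12 (adjusted p = 0.376) and 0.11 ± 0.17 (adjusted p = 0.634).

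Of the macrophage markers, 11 rose and 0 fell of 12 tested members (median 1.29). Without the member that passed the filter through MI alone, 10 of 11 rose. In the 5 libraries low in Myl7, 10 of all 12 rose. Cd68, a glycoprotein of macrophage lysosomes, measured 3.98, 5.02, 5.23, 3.98 and 4.65 FPKM in Sham and 18.5, 40.4, 27.6, 28.6 and 26.7 in MI (log2 difference 2.36 ± 0.17 SE, adjusted p = 2.45e-05). The MI libraries were all well above Sham, with replicate 2 highest. Cx3cr1, the fractalkine receptor of monocytes and resident macrophages, measured 0.870, 2.39, 0.689, 0.795 and 0.834 FPKM in Sham and 3.56, 7.43, 5.67, 5.01 and 2.44 in MI. Sham replicate 2 stood above the rest of its group and just below the lowest MI library, replicate 5. C1qb, a chain of complement C1q made by tissue macrophages, rose from 53 ± 5.44 to 143 ± 32.8 FPKM (1.40 ± 0.15). The summed level of the list was 302 to 378 FPKM in Sham and 646 to 1088 in MI, again without overlap. Mertk, a receptor for dying cells, was not called (log2 difference 0.37 ± 0.15, adjusted p = 0.0649).

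Epicardial and mesothelial markers moved the same way: 6 rose and 0 fell of 9 tested members (5 of 8 without the member that passed the filter through MI alone, and 4 in the 5 libraries low in Myl7), and their summed level was 7.41 to 19.1 FPKM in Sham and 40.7 to 70.4 in MI. Aldh1a2, which makes retinoic acid in the epicardium, measured 2.59, 2.17, 4.50, 4.04 and 4.73 FPKM in Sham and 10.2, 37.1, 18.4, 24.7 and 29.1 in MI (log2 difference 2.36 ± 0.30 SE, adjusted p = 0.000178). All infarcted ventricles were above Sham, with replicate 2 highest and replicate 1 lowest. Msln, mesothelin of the mesothelial surface, rose from 2.69 ± 1.61 to 9.66 ± 4.53 FPKM (1.55 ± 0.38). Schwann cell and neuron markers split: 2 rose and 2 fell of 7 tested members (median log2 difference -0.17). Tubb3, a tubulin of neurons, measured 1.21, 1.38, 1.71, 1.06 and 0.546 FPKM in Sham and 2.45, 14.9, 9.06, 10.7 and 9.59 in MI (log2 difference 2.11 ± 0.34 SE, adjusted p = 0.000686). Uchl1, a neuronal ubiquitin hydrolase, was the other member that rose, by 1.58. Tubb3 was lowest in MI replicate 1 and highest in replicate 2, both above Sham. Cdh19, a cadherin of glia, was 1 of the 2 members that fell, by 0.50. It was not called without MI replicate 3, 4 or 5 or Sham replicate 3 or 5 (adjusted p = 0.0519 to 0.102).

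The vascular lists moved little. Of the endothelial markers, 5 rose and 2 fell of 20 tested members (median 0.24), with no rise called in the 5 libraries low in Myl7. Without MI replicate 3 the counts were 3 and 0, without MI replicate 4 there were 8 rises, and without Sham replicate 1 or 5 there was no fall. Sox18, an endothelial transcription factor, rose by 0.46, and Aqp1, a water channel, fell by 0.44. Without MI replicate 3, or Sham replicate 1, 3, 4 or 5, Aqp1 was not called (adjusted p = 0.0503, 0.0512, 0.0568, 0.0517 and 0.0583). Among lymphatic markers, Prox1, the transcription factor that sets lymphatic identity and is also made by cardiomyocytes, measured 10.5, 13.5, 10.3, 9.68 and 15.2 FPKM in Sham and 7.67, 4.46, 5.09, 6.24 and 5.12 in MI (log2 difference -0.93 ± 0.15 SE, adjusted p = 0.000683). Pdpn, podoplanin, which activated stromal cells and macrophages also make, rose from 2.63 ± 0.568 to 9.65 ± 1.68 FPKM (1.55 ± 0.14). Both differences were without overlap and opposite in sign, and Lyve1, the hyaluronan receptor, was not called (log2 difference -0.41 ± 0.22, adjusted p = 0.157). In the pericyte and smooth muscle list, 3 rose and 4 fell of 13 tested members, against 1 and 1 in the 5 libraries low in Myl7. Abcc9, the sulfonylurea receptor of potassium channels in pericytes and cardiomyocytes, measured 47.7, 51.3, 42.2, 37.9 and 58.5 FPKM in Sham and 24.0, 14.8, 17.0, 19.1 and 16.3 in MI (log2 difference -1.34 ± 0.15 SE, adjusted p = 8.71e-05), while its channel partner Kcnj8 was not called (log2 difference -0.10 ± 0.11, adjusted p = 0.488).

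Markers of other blood-borne cells stood at very different levels. All 12 markers of T and natural killer cells stayed below the filter, with a summed level of 1.76 to 2.60 FPKM in Sham and 1.85 to 4.47 in MI. Neutrophil markers summed to 3.57 to 6.10 FPKM in Sham and 5.87 to 17.7 in MI, with overlap. Of 3 tested neutrophil members, Csf3r, the receptor of granulocyte colony-stimulating factor, passed the filter through MI alone, with means of 0.472 to 2.44 FPKM. Neither of the other 2 was called with all libraries, and both were called without MI replicate 4. Erythroid markers summed to 98.1 to 438 FPKM in Sham and 328 to 469.9 in MI, with overlap. Of 5 tested erythroid members only Hba-a2, an alpha globin with a near-identical copy in the genome, was called, at 4.12, 4.16, 3.15, 13.4 and 13.1 FPKM in Sham and 17.0, 14.8, 21.9, 9.10 and 19.4 in MI (log2 difference 1.18 ± 0.37 SE, adjusted p = 0.0255). It was not called without MI replicate 3 or Sham replicate 1, 2 or 3 (adjusted p = 0.0605 to 0.0618), with the Myl7 covariate (0.143) or in the 5 libraries low in Myl7 (0.106). Platelet markers summed to 19.8 to 23.9 FPKM in Sham and 25.7 to 33.3 in MI, without overlap. Pf4, platelet factor 4, the 1 tested member, rose from 20.4 ± 1.95 to 27.5 ± 2.63 FPKM (0.42 ± 0.10). It was not called in the 5 libraries low in Myl7 (adjusted p = 0.178). Pf4 made up most of the summed means of 22.0 FPKM in Sham and 29.6 in MI. The untested platelet members reached at most 1.77 FPKM, so the sum mainly describes this 1 gene. Of 4 tested mast cell markers the 1 called had passed the filter through MI alone. None of the 2 tested dendritic cell markers and the 1 tested B cell marker was called. Of 4 tested adipocyte markers, Retn, the hormone resistin, fell (log2 difference -0.80 ± 0.29; not called without any single library other than MI replicate 5 and Sham replicate 4, at adjusted p = 0.0567 to 0.102) and Adipoq, adiponectin, was not called (-0.86 ± 0.45, adjusted p = 0.145). The adipocyte list summed to 69.7, 36.0, 58.2, 4.8 and 53.1 FPKM in Sham and 20.9, 3.1, 19.3, 3.2 and 41.9 in MI. Sham replicate 4 was as low as the lowest MI libraries, and without it 4 adipocyte markers fell. Among cardiomyocyte markers, 1 rose and 6 fell of 16 tested members (median -0.31). Tnni3, cardiac troponin I, fell from 1889 ± 214 to 1015 ± 368 FPKM (-0.97 ± 0.25), Mybpc3, a thick-filament protein, was not called (0.29 ± 0.19), and in the 5 libraries low in Myl7 none of the list fell.

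**Figure D2:**
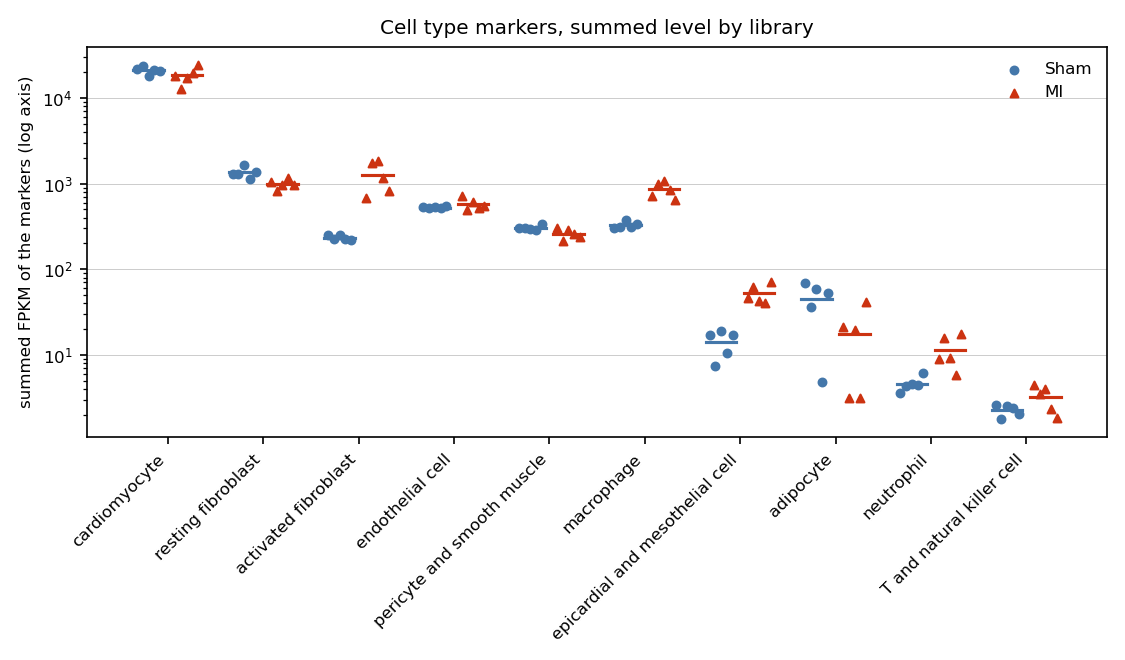
Summed FPKM of each cell-type marker list on a log axis, one point per library, Sham as circles beside MI as triangles, with a bar at each group mean. The groups do not overlap for the activated fibroblast, macrophage and epicardial lists, and they overlap for the cardiomyocyte, endothelial, neutrophil and adipocyte lists.

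The receptors and enzymes of phagocytes rose with the macrophage markers. Of pattern recognition and Fc receptors, 17 rose and 0 fell of 21 tested members; 4 of these had passed the filter through MI alone, and 13 of the other 17 rose. Trem2, a lipid-sensing receptor of macrophages, measured 0.374, 0.406, 0.378, 0.486 and 0.281 FPKM in Sham and 2.69, 8.02, 6.44, 4.34 and 3.03 in MI (log2 difference 2.01 ± 0.22). It was one of those that passed through MI alone, and highest in MI replicate 2. Its signalling adaptor Tyrobp rose from 12.9 ± 2.06 to 42.7 ± 15 FPKM (1.60 ± 0.21), and Fcer1g, the shared chain of Fc receptors, from 10.7 to 37.4 FPKM (1.68 ± 0.19). In the 5 libraries low in Myl7, 12 of the list rose. Of genes for the uptake of dying cells, 13 rose and 0 fell of 16 tested members, and 6 rose in the 5 libraries low in Myl7. Of these members 2 had passed the filter through MI alone, and 11 of the other 14 rose. Anxa1, annexin A1, which limits neutrophil entry and marks dying cells, rose from 12.8 ± 2.09 to 35.6 ± 10.2 FPKM (1.38 ± 0.19). Stab1, a scavenger receptor, rose by 0.91 and Mrc1, the mannose receptor, by 0.83.

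Of lysosomal proteins, 19 rose and 1 fell of 31 tested members (median 0.52), and 10 rose in the 5 libraries low in Myl7. Grn, progranulin, measured 25.9, 26.9, 26.1, 24.6 and 27.7 FPKM in Sham and 54.2, 70.6, 65.1, 65.5 and 59.2 in MI (log2 difference 1.22 ± 0.09 SE, adjusted p = 2.46e-05). The Sham libraries spanned a narrow range and every MI library was well above it. Laptm5, a lysosomal membrane protein of blood cells, rose from 5.96 ± 0.577 to 21.9 ± 5.61 FPKM (1.68 ± 0.16), and Lgmn, the protease legumain, from 38.2 ± 3.47 to 83.4 ± 20.4 FPKM (1.08 ± 0.16). Lamp1, which all cells carry on lysosomes, was not called (log2 difference 0.16 ± 0.12, adjusted p = 0.285). For the adhesion of leukocytes to vessel walls, 6 rose and 1 fell of 10 tested members, or 5 and 1 of 9 without Sele, and 4 rose and 0 fell in the 5 libraries low in Myl7. Itgb2, the beta-2 integrin chain of leukocytes, rose from 2.75 ± 0.361 to 9.91 ± 2.88 FPKM (1.51 ± 0.16). Sele, E-selectin of activated endothelium, measured 0.650, 0.483, 0.251, 0.259 and 0.239 FPKM in Sham and 1.92, 2.32, 1.16, 2.54 and 1.61 in MI (log2 difference 1.07 ± 0.14). It was low in all libraries and passed the filter through MI alone, and Vcam1, a further endothelial adhesion molecule, was not called (0.35 ± 0.17, adjusted p = 0.123).

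Genes of mitosis were almost silent in Sham and measurable in MI. Of the 26 mitotic genes listed, 21 were tested, and 16 of these passed the filter through the MI libraries alone and so had to differ; for them only levels are given. Of the other 5, Ccnb2, Cdc20 and Mki67 rose, and Cenpf and Spc24, both of the kinetochore, were not called (log2 differences -0.78 ± 0.33 and 0.09 ± 0.18, adjusted p = 0.075 and 0.71). Ccnb2, cyclin B2, measured 0.618, 0.656, 1.28, 0.554 and 0.273 FPKM in Sham and 8.07, 4.95, 5.48, 4.18 and 8.74 in MI (log2 difference 2.10 ± 0.19 SE, adjusted p = 5.18e-05). Cdc20, which activates the anaphase-promoting complex, measured 1.21, 0.839, 1.56, 0.555 and 0.944 FPKM in Sham and 8.23, 4.17, 4.41, 2.92 and 8.41 in MI (log2 difference 1.65 ± 0.24 SE, adjusted p = 0.000398). For both genes MI replicates 1 and 5 were the highest, and MI replicate 4 the lowest. Top2a, the topoisomerase of dividing cells, measured 0.475, 0.428, 0.846, 0.366 and 0.319 FPKM in Sham and 4.30, 3.0, 2.80, 3.13 and 5.13 in MI, and Ube2c, an enzyme of the same complex as Cdc20, measured 0.399, 0.680, 0.790, 0.472 and 0.357 FPKM in Sham and 4.55, 2.60, 3.53, 2.56 and 6.28 in MI. The summed level of the mitotic list was 11.9, 12.0, 20.1, 11.1 and 13.6 FPKM in Sham and 80.3, 52.4, 52.8, 46.7 and 93.0 in MI. This order within MI was unlike that of the fibroblast list, where replicates 1 and 5 were the lowest.

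The promoters of Ccnb2, Cdc20 and Top2a, which were higher together in every MI library, are shown with the motifs known from promoters of mitotic genes. Capitals mark the CHR motif TTTGAA and the CCAAT box, each searched on both strands. The stretches are RefSeq sequence of GRCm38.p6 on the gene's strand and end at the base before the start: Ccnb2 at chr9:70421555-70421664, Cdc20 at chr4:118437344-118437443 and Top2a at chr11:99024190-99024299, all on the minus strand.
Ccnb2: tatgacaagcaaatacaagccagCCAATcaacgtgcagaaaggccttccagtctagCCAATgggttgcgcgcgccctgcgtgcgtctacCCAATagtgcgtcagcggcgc
Cdc20: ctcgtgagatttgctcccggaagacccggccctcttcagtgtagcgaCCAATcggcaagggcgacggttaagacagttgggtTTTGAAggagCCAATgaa
Top2a: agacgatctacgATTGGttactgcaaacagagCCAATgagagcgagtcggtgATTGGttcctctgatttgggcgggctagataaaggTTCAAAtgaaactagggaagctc
The printed stretches held 3, 2 and 3 CCAAT boxes, and 0, 1 and 1 CHR matches. They are shorter than the promoter windows described above, which also run past the start. The full windows of Ccnb2, Cdc20 and Top2a held 3, 2 and 6 CCAAT boxes, and 2, 1 and 2 CHR matches. Both CHR matches of Ccnb2 lay outside its printed stretch, with first bases at -167 and 5 from the start. Among all 32544 such full windows, 37.4% held CCAAT and 17.8% held TTTGAA on either strand, so each motif alone is common. Promoters were found for 76.2% of the tested mitotic genes, too few for a comparison of shares.

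Nearly the whole list of the non-muscle actin cytoskeleton with annexins and S100 proteins rose: 34 rose and 0 fell of 38 tested members (median 0.94), and 32 rose in the 5 libraries low in Myl7. These proteins drive movement and shape change in fibroblasts, leukocytes and vessel cells, and most are expressed in many cell types. Capg, which caps actin filaments in macrophages, measured 6.66, 5.53, 5.81, 4.49 and 4.97 FPKM in Sham and 18.2, 30.5, 22.6, 18.7 and 20.5 in MI (log2 difference 1.81 ± 0.14 SE, adjusted p = 3.09e-05). Fscn1, the actin-bundling protein fascin, measured 11.5, 13.3, 11.6, 10.4 and 10.1 FPKM in Sham and 39.6, 36.3, 43.0, 29.4 and 36.4 in MI (log2 difference 1.61 ± 0.11 SE, adjusted p = 2.45e-05). Both genes were at a similar level in all Sham libraries and far above it in all MI libraries. S100a11, a calcium-binding annexin partner, rose from 52.7 ± 4.30 to 179 ± 28.5 FPKM (1.73 ± 0.12), and Anxa2, annexin A2, from 21 ± 2.22 to 69.2 ± 16.9 FPKM (1.65 ± 0.15). The 4 tested members that were not called were Tmsb10, Arpc1a, Actr2 and Myl9, with log2 differences of 1.02, 0.09, 0.33 and 0.09 (adjusted p = 0.1, 0.397, 0.076 and 0.623).

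Receptors that tie cells to matrix changed in part. Of integrins and focal adhesion genes, 12 rose and 2 fell of 28 tested members (11 and 2 of 27 without the member that passed the filter through MI alone), 5 rose in the 5 libraries low in Myl7, and 4 fell without MI replicate 5. Itga5, the fibronectin receptor chain, rose from 13.5 ± 0.718 to 35.4 ± 13.5 FPKM (1.26 ± 0.20). Fhl1, a LIM protein of the stressed sarcomere, measured 56.2, 51.2, 49.0, 48.1 and 48.5 FPKM in Sham and 81.7, 262, 119, 248 and 274 in MI (log2 difference 1.79 ± 0.31 SE, adjusted p = 0.00101). MI replicates 2, 4 and 5 were high, and MI replicate 1 was above Sham by the least. Of basement membrane genes, 13 rose and 3 fell of 19 tested members (median 0.58), and 7 rose in the 5 libraries low in Myl7. Col4a1 (ENSMUSG00000031502, chromosome 8, 11198423 to 11312826 on mm10), a chain of collagen IV, measured 79.0, 64.7, 57.7, 49.5 and 59.3 FPKM in Sham and 193, 256, 218, 130.1 and 160.1 in MI (log2 difference 1.59 ± 0.19 SE, adjusted p = 0.000118), and its neighbour and partner Col4a2 rose by 1.53. Col4a1 was above Sham in every MI library, and MI replicate 4 was the lowest. Col18a1, the source of endostatin, rose by 1.25. The 3 members that fell were Lama5 and Lamb3, laminin chains, and Egflam, which links dystroglycan to synapses. Lamb3 measured 2.76, 2.90, 3.56, 3.47 and 4.75 FPKM in Sham and 1.89, 0.443, 1.12, 1.08 and 1.58 in MI (log2 difference -1.04 ± 0.18 SE, adjusted p = 0.00104), with MI replicate 2 the lowest.

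Genes of secretory transport rose in part. Of 39 tested genes of the translocon, signal peptidase and the vesicles between endoplasmic reticulum and Golgi, 20 rose and 0 fell (51.3% against 20.5% of all genes), and 9 rose in the 5 libraries low in Myl7, while 2 fell without MI replicate 4. Kdelr3, which returns proteins to the endoplasmic reticulum, measured 6.71, 6.15, 6.31, 6.32 and 4.93 FPKM in Sham and 15.5, 24.7, 24.4, 22.4 and 14.9 in MI (log2 difference 1.57 ± 0.15 SE, adjusted p = 6.08e-05). All infarcted ventricles were above Sham, replicates 1 and 5 by the least. Sec61b, a subunit of the translocon, rose from 8.68 to 16.1 FPKM (0.80 ± 0.17). Of the chaperones and unfolded protein response, 6 rose and 4 fell of 27 tested members (median 0.04). These shares of 22.2% and 14.8% were near or below the 20.5% and 20.8% of all genes. P4hb, a subunit of collagen prolyl hydroxylase, rose from 83.2 ± 5.40 to 155 ± 21.8 FPKM (0.88 ± 0.12), as did Creb3l1, a membrane-bound transcription factor of secretory cells (0.81 ± 0.14). Herpud1 and Dnajb9, targets of the unfolded protein response, fell (log2 differences -0.93 ± 0.16 and -0.80 ± 0.16), and Hspa5, its main chaperone, was not called (-0.38 ± 0.16, adjusted p = 0.0732).

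**Figure D3:**
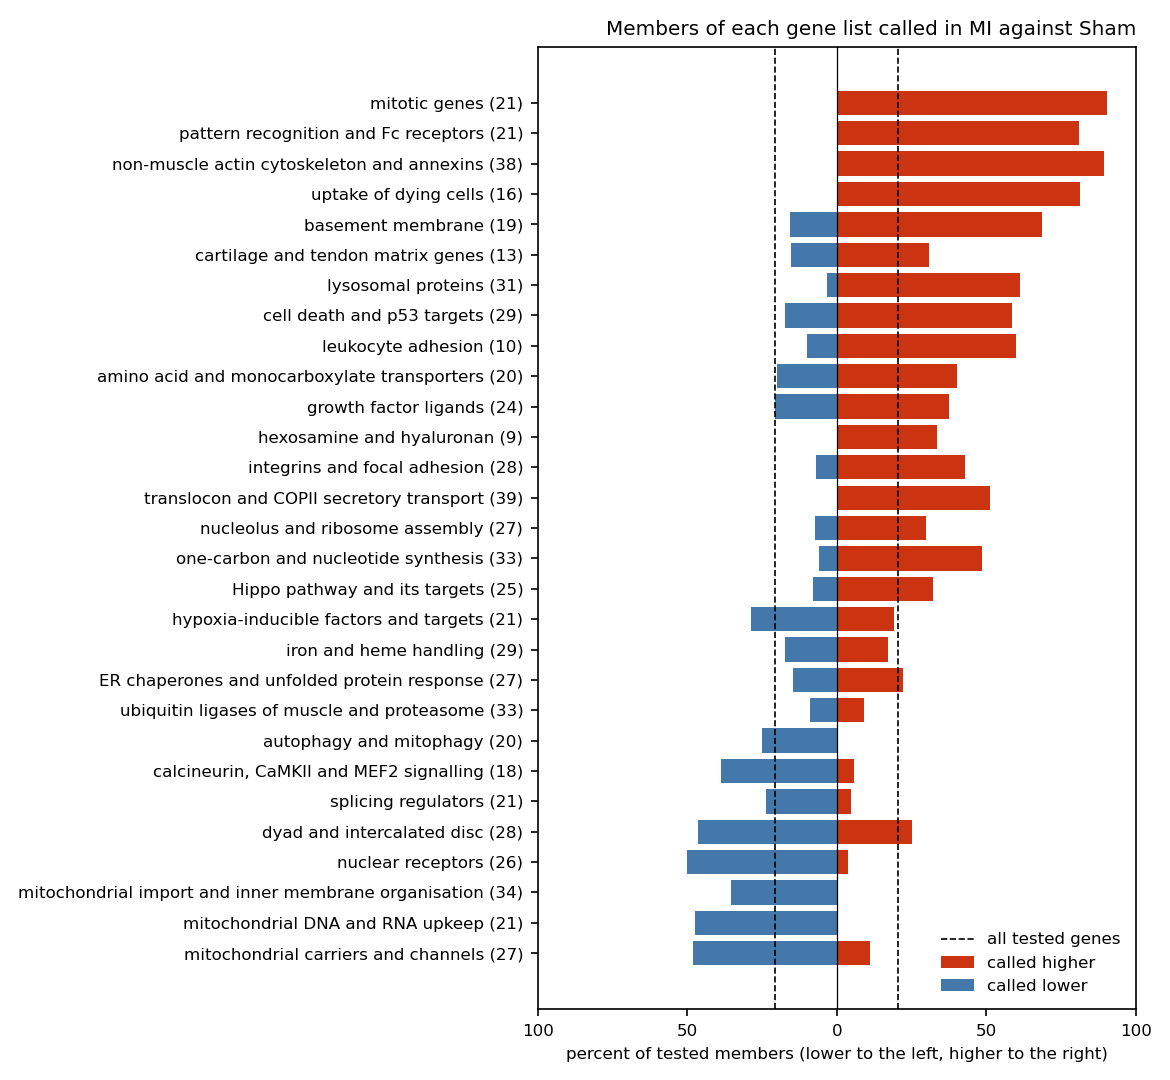
Percent of the tested members of each gene list that were called higher in MI (bars to the right) or lower (bars to the left), with the number tested in brackets and dashed lines at the 20.5% and 20.8% of all tested genes. Bars to the right pass the dashed line widely for the actin cytoskeleton and phagocyte lists, and bars to the left pass it for the nuclear receptors and the mitochondrial lists. The bars include members that passed the filter through a single group and had to differ. Through MI alone these were most of the mitotic list, 4 of 21 pattern recognition members and 2 of 16 members for the uptake of dying cells.

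In cardiomyocytes, the structures that couple excitation to calcium release changed in both directions. Of dyad and intercalated disc genes, 7 rose and 13 fell of 28 tested members, and 3 fell and 1 rose in the 5 libraries low in Myl7. Without Sham replicate 3, 4 rose. Ryr2 (ENSMUSG00000021313, chromosome 13, 11553102 to 12106945 on mm10), the calcium release channel, measured 71.0, 64.3, 70.0, 63.2 and 75.1 FPKM in Sham and 49.1, 32.3, 30.3, 38.5 and 48.5 in MI (log2 difference -0.80 ± 0.14 SE, adjusted p = 0.00124). All infarcted ventricles were below Sham, with replicates 2 and 3 the lowest. Trdn, triadin, which anchors calsequestrin at the channel, fell from 40.1 ± 3.77 to 21.6 ± 6.59 FPKM (-0.90 ± 0.17), and Tmem65, a protein of the intercalated disc, from 49.7 ± 4.6 to 23.5 ± 4.11 FPKM (-1.06 ± 0.12). Casq2, calsequestrin itself, was not called (0.13 ± 0.18, adjusted p = 0.588), nor was Gja1, the gap junction protein connexin 43 (0.03 ± 0.15, adjusted p = 0.906). Among the members that rose, Xirp2, which repairs strained actin filaments, measured 58.3, 51.1, 34.6, 32.1 and 30.8 FPKM in Sham and 50.7, 243, 97.7, 146 and 73.0 in MI (log2 difference 1.37 ± 0.37 SE, adjusted p = 0.0117). Sham replicates 1 and 2 were above MI replicate 1, so the groups overlapped. Des, desmin, rose from 415 ± 73.3 to 792 ± 245 FPKM (0.90 ± 0.22).

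Of calcineurin, CaMKII and MEF2 signalling genes, 1 rose and 7 fell of 18 tested members, and 1 fell in the 5 libraries low in Myl7. Rcan1, a feedback inhibitor that calcineurin induces, was the member that rose, at 59.9, 51.3, 39.6, 41.0 and 34.4 FPKM in Sham and 82.5, 139.5, 127, 146 and 98.8 in MI (log2 difference 1.37 ± 0.19 SE, adjusted p = 0.000311). The Sham values were highest in the mixed replicates 1 and 2, and did not reach the MI values. Camk2a, a calcium-dependent kinase, fell from 7.79 ± 0.590 to 4.04 ± 1.87 FPKM (-0.90 ± 0.24), and Mef2a, a transcription factor of muscle genes, fell from 15.6 ± 0.986 to 9.78 ± 2.23 FPKM (-0.64 ± 0.12). Of splicing regulators, 1 rose and 5 fell of 21 tested members, and 3 fell in the 5 libraries low in Myl7. The 23.8% that fell was near the 20.8% of all genes. Rbfox1, which promotes adult muscle splice forms, measured 6.13, 6.39, 8.92, 9.36 and 9.81 FPKM in Sham and 3.08, 1.10, 1.74, 2.65 and 2.69 in MI (log2 difference -1.51 ± 0.19 SE, adjusted p = 0.000177). It was below Sham in all MI libraries. Ptbp1, which represses adult muscle exons, was the member that rose, at 7.58, 8.39, 7.41, 7.53 and 7.85 FPKM in Sham and 13.3, 16.3, 14, 12.9 and 14.9 in MI (log2 difference 0.80 ± 0.08 SE, adjusted p = 6.9e-05). Both groups were tight, and they did not overlap. Rbfox2 was not called (log2 difference 0.00 ± 0.08, adjusted p = 0.986).

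Nuclear receptors fell or were not called, with 1 exception: 1 rose and 13 fell of 26 tested members (median -0.33), against 20.8% lower among all genes, and 5 fell in the 5 libraries low in Myl7. Rxrg, a retinoid X receptor and partner of many of the others, measured 30.4, 33.8, 31.4, 34.0 and 35.2 FPKM in Sham and 19.6, 6.30, 15.6, 17.0 and 23.5 in MI (log2 difference -1.07 ± 0.26 SE, adjusted p = 0.00768). MI replicate 2 was far below the rest and replicate 5 nearest to Sham. Nr3c2, the mineralocorticoid receptor, measured 3.10, 3.73, 3.60, 3.90 and 4.61 FPKM in Sham and 1.72, 0.916, 1.28, 1.49 and 1.79 in MI (log2 difference -0.98 ± 0.12 SE, adjusted p = 0.00013). Esrra and Esrrg, the estrogen-related receptors that drive mitochondrial genes, fell from 95.8 ± 6.95 to 57.5 ± 22.1 FPKM (-0.81 ± 0.22) and from 8.86 ± 0.999 to 4.47 ± 1.24 FPKM (-0.87 ± 0.15). The member that rose was Rara, a retinoic acid receptor. Nr3c1, the glucocorticoid receptor, was not called (-0.27 ± 0.10, adjusted p = 0.0557).

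The mitochondrial lists held falls and few rises. Of genes for protein import and inner membrane organisation, 0 rose and 12 fell of 34 tested members (median -0.33); 21 fell without MI replicate 5 and 2 in the 5 libraries low in Myl7. Hspd1, the chaperonin of the matrix, measured 174, 187, 158, 167 and 202 FPKM in Sham and 114, 80.0, 87.7, 104 and 129 in MI (log2 difference -0.80 ± 0.14 SE, adjusted p = 0.00117), and Opa1, which fuses inner membranes, fell from 29.1 ± 2.06 to 19.0 ± 3.83 FPKM (-0.61 ± 0.13). MI replicate 5 had the highest Hspd1 of its group. Of carriers and channels, 3 rose and 13 fell of 27 tested members; 8 fell without Sham replicate 5 and 2 in the 5 libraries low in Myl7. Slc25a42, the importer of coenzyme A, measured 16.8, 19.0, 17.8, 17.6 and 20.5 FPKM in Sham and 10.5, 2.81, 6.52, 7.40 and 9.67 in MI (log2 difference -1.30 ± 0.25 SE, adjusted p = 0.00182). Mcub, a subunit that limits calcium uptake by the uniporter, was among the 3 that rose, at 1.78, 1.49, 2.01, 1.25 and 1.34 FPKM in Sham and 3.22, 5.12, 4.84, 6.09 and 3.27 in MI (log2 difference 1.08 ± 0.15 SE, adjusted p = 0.000331). It was above Sham in all infarcted ventricles, while the pore subunit Mcu fell by 0.20. Of genes for the upkeep of mitochondrial DNA and RNA, 0 rose and 10 fell of 21 tested members; 18 fell without MI replicate 5 and 2 in the 5 libraries low in Myl7. Mgme1, an exonuclease of mitochondrial DNA, fell from 8.85 ± 1.06 to 4.25 ± 0.650 FPKM (-0.91 ± 0.11) and Tfam, which packages that DNA, was not called (-0.29 ± 0.11, adjusted p = 0.0573).

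Transcripts of the mitochondrial genome itself fell unevenly. mt-Nd3, a small subunit of complex I, measured 425, 427, 378, 723 and 464 FPKM in Sham and 96.3, 115, 97.2, 134 and 79.2 in MI (log2 difference -2.18 ± 0.19 SE, adjusted p = 4.26e-05), and the large ribosomal RNA mt-Rnr2 measured 3436, 3138, 3721, 3422 and 3618 FPKM in Sham and 819, 889, 774, 1508 and 624 in MI (log2 difference -1.97 ± 0.21 SE, adjusted p = 8.54e-05). For both, all infarcted ventricles were low, and MI replicate 4 was the least so. mt-Co1, a core subunit of complex IV, measured 58749.7, 58849, 60867, 65245 and 60854 FPKM in Sham and 34042, 32136, 32067, 66571 and 32709 in MI (log2 difference -0.69 ± 0.25 SE, adjusted p = 0.048). MI replicate 4 lay inside the Sham range. The call was lost without any single library other than MI replicate 4, at adjusted p = 0.068 to 0.119. All 19 tested mitochondrial transfer RNAs and both ribosomal RNAs fell, against 20.8% of all genes, and these RNAs are not the target of poly-A selection. Of autophagy and mitophagy genes, 0 rose and 5 fell of 20 tested members, a share of 25.0% near the 20.8% of all genes, and 2 fell in the 5 libraries low in Myl7. Pink1 (ENSMUSG00000028756, chromosome 4, 138313409 to 138326307 on mm10), the kinase that marks damaged mitochondria, measured 297, 331, 334, 374 and 389.8 FPKM in Sham and 187, 97.3, 143, 105 and 158 in MI (log2 difference -1.35 ± 0.18 SE, adjusted p = 0.000239). All infarcted ventricles were lower, with MI replicates 2 and 4 the lowest. Fundc2 and Fundc1, mitophagy receptors of the outer membrane, fell from 51.0 to 28.6 FPKM and from 11.7 to 7.58 FPKM, whereas Bnip3, a receptor induced by low oxygen, was not called (-0.05 ± 0.19, adjusted p = 0.866). Without MI replicate 2 or 3, or Sham replicate 2 or 5, 3 members of the list fell.

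Of ubiquitin ligases of muscle and proteasome subunits, 3 rose and 3 fell of 33 tested members, below the share of calls among all genes in both directions, and 0 rose and 1 fell in the 5 libraries low in Myl7. Fbxo31, Fbxo32 and Trim63 fell from 24.9 to 11.5 FPKM, from 24.4 to 14.1 FPKM and from 81.9 to 52.0 FPKM, with log2 differences of -1.09 ± 0.16, -0.80 ± 0.19 and -0.66 ± 0.14. Fbxo32 (atrogin-1) and Trim63 (MuRF1) mark muscle atrophy. The 3 members that rose were proteasome subunits, among them Psmd14 by 0.35 (adjusted p = 0.0443). None of the 3 rises was called without MI replicate 2 or 5, or without Sham replicate 1, 3, 4 or 5, and 1 was called without MI replicate 3 or 4. Without MI replicate 5, 5 members of the list fell.

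Growth factor, Hippo and oxygen-sensing genes were called in both directions. Of growth factor ligands, 9 rose and 5 fell of 24 tested members, and 4 rose and 3 fell in the 5 libraries low in Myl7. The main shares were 37.5% and 20.8%, against 20.5% and 20.8% of all genes. Fstl1, a secreted follistatin-like protein, measured 38.3, 34.7, 42.1, 28.5 and 29.3 FPKM in Sham and 139, 261, 247, 267 and 109.6 in MI (log2 difference 2.46 ± 0.25 SE, adjusted p = 7.55e-05). MI replicates 2, 3 and 4 were about alike and replicates 1 and 5 lower, all above Sham. Gdf15, a stress hormone, measured 2.12, 0.912, 0.912, 0.356 and 0.551 FPKM in Sham and 0.985, 11.7, 8.49, 4.21 and 2.35 in MI (log2 difference 1.49 ± 0.45 SE, adjusted p = 0.0202). Sham replicate 1 was above MI replicate 1, and without MI replicate 3 the gene was not called (adjusted p = 0.0519). Of the Hippo pathway and its targets, 8 rose and 2 fell of 25 tested members, and 2 rose and 0 fell in the 5 libraries low in Myl7. The largest rises were Ankrd1, given above, and Cyr61, a matricellular target, from 26.0 ± 8.81 to 63.9 ± 22.4 FPKM (1.26 ± 0.26), and the core members Yap1 and Lats1 were not called (-0.10 ± 0.07 and 0.06 ± 0.12, adjusted p = 0.308 and 0.687). Of hypoxia-inducible factors and targets, 4 rose and 6 fell of 21 tested members. These shares of 19.0% and 28.6% were near the 20.5% and 20.8% of all genes. Without Sham replicate 1 the falls numbered 3. In the 5 libraries low in Myl7, 1 rose and 1 fell. Egln1, the main oxygen-dependent prolyl hydroxylase, measured 161, 192, 179, 182 and 206 FPKM in Sham and 101, 66.3, 83.3, 96.0 and 97.1 in MI (log2 difference -1.06 ± 0.13 SE, adjusted p = 0.000161). It was lower in every infarcted ventricle, and Vegfa, the angiogenic growth factor, was not called (-0.25 ± 0.12, adjusted p = 0.115).

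Of cell death and p53 target genes, 17 rose and 5 fell of 29 tested members (median 0.44), and 10 rose and 1 fell in the 5 libraries low in Myl7. Tnfrsf12a, the receptor of the cytokine TWEAK, measured 43.8, 42.8, 18.7, 19.0 and 8.12 FPKM in Sham and 57.3, 132, 111, 77.7 and 107 in MI (log2 difference 2.01 ± 0.41 SE, adjusted p = 0.00263). The mixed Sham replicates 1 and 2 were the highest of their group and were just below MI replicate 1. Ripk3, the kinase of necroptosis, measured 1.51, 1.23, 1.12, 1.32 and 1.28 FPKM in Sham and 4.26, 3.97, 4.49, 2.67 and 3.79 in MI (log2 difference 1.07 ± 0.11 SE, adjusted p = 7.3e-05), and Tnfrsf1a, the TNF receptor that can start it, rose from 21.4 ± 0.915 to 47.7 ± 6.16 FPKM (1.11 ± 0.10). Cdkn1a, the p53 target p21, was not called (0.18 ± 0.34, adjusted p = 0.69).

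Genes of nucleotide supply rose in part. Of one-carbon and nucleotide synthesis genes, 16 rose and 2 fell of 33 tested members (14 and 2 of 31 without the members that passed the filter through MI alone), and 6 rose in the 5 libraries low in Myl7; without MI replicate 5, 4 fell. Uck2, which salvages uridine and cytidine, measured 15.6, 11.2, 7.8, 8.12 and 8.71 FPKM in Sham and 21.3, 69.7, 34.9, 40.1 and 37.3 in MI (log2 difference 1.83 ± 0.27 SE, adjusted p = 0.000454). MI replicate 2 was highest, and the mixed Sham replicates were the highest of Sham. Cda, cytidine deaminase, measured 0.827, 0.893, 0.573, 0.820 and 0.493 FPKM in Sham and 3.31, 2.97, 3.14, 3.69 and 3.26 in MI (log2 difference 1.32 ± 0.09), having passed the filter through MI alone, and Upp1, uridine phosphorylase, rose from 1.99 ± 0.336 to 7.76 ± 1.17 FPKM (1.55 ± 0.11). Of amino acid and monocarboxylate transporters, 8 rose and 4 fell of 20 tested members. Slc16a3, the lactate exporter MCT4, measured 0.949, 0.816, 0.841, 0.665 and 0.829 FPKM in Sham and 2.05, 7.60, 4.81, 3.23 and 3.51 in MI (log2 difference 1.44 ± 0.22), and Slc7a5, the large neutral amino acid transporter, rose from 1.86 ± 0.698 to 5.25 ± 1.06 FPKM (1.15 ± 0.16). Slc16a3 passed the filter through MI alone and was highest in MI replicate 2. Of this list 1 gene had passed through each group alone, and 7 of the other 18 rose and 3 fell; 6 rose and 2 fell in the 5 libraries low in Myl7. Of iron and heme genes, 5 rose and 5 fell of 29 tested members, and 4 rose and 2 fell in the 5 libraries low in Myl7. The main share of 17.2% each way was below the 20.5% and 20.8% of all genes. Hmox1, which breaks down heme, measured 4.07, 4.75, 4.22, 3.88 and 4.32 FPKM in Sham and 15.5, 55.1, 24.4, 25.3 and 16.8 in MI (log2 difference 2.29 ± 0.27 SE, adjusted p = 0.000125), and Hfe2, hemojuvelin, a muscle co-receptor of bone morphogenetic proteins, fell from 149 ± 7.88 to 77.6 ± 28.7 FPKM (-1.02 ± 0.25). The Hmox1 values were alike in Sham and well above it in MI. Of nucleolus and ribosome assembly genes, 8 rose and 2 fell of 27 tested members (4 and 0 in the 5 libraries low in Myl7), led by Myc, a transcription factor of growth, from 1.20 ± 0.444 to 4.13 ± 1.83 FPKM (1.18 ± 0.23). Small further lists were cartilage and tendon matrix, with 4 rises and 2 falls of 13 tested (3 and 2 of 12 without the member that passed the filter through MI alone), and hexosamine and hyaluronan, with 3 rises of 9, among them Cd44, the hyaluronan receptor, at 1.27 ± 0.20.

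Many proteins of adult striated muscle have a counterpart of the fetal heart or of other tissues. For 20 such pairs the share of the first gene in the sum of both was computed per library from FPKM, which is per length, and compared by a two-sided exact permutation test over all assignments of 5 against 5 libraries, adjusted over the 20 pairs. The share of the first, fetal or broadly expressed gene was higher in MI for 15 pairs at an adjusted p under 0.05, and lower for 0. A share does not show which gene of a pair changed, or in which cells. Rpl3 as a share of Rpl3 plus Rpl3l was 26.2, 21.3, 27.5, 24.4 and 20.3% in Sham and 53.6, 93.3, 78.1, 84.0 and 68.8% in MI (adjusted exact p = 0.0144). The sum was mainly Rpl3l in Sham and mainly Rpl3 in MI, and the groups did not overlap. Ldha, the lactate dehydrogenase subunit of glycolytic tissue, made up 20.9, 19.1, 22.0, 20.3 and 19.0% in Sham and 34.3, 52.7, 41.4, 36.8 and 35.1% in MI of Ldha plus Ldhb (adjusted exact p = 0.0144). Pfkp, the platelet-type phosphofructokinase, was 1.80% ± 0.447 in Sham and 8.99% ± 5.00 in MI of its sum with muscle Pfkm, and Ckb, brain creatine kinase, was 6.14% ± 0.781 in Sham and 17.7% ± 7.48 in MI of its sum with Ckm, each at the same adjusted p.

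The pairs of glucose handling moved the same way. Slc2a1, the widely expressed glucose transporter, was 3.73, 4.0, 4.49, 4.54 and 4.03% in Sham and 6.07, 32.1, 11.6, 10.4 and 7.14% in MI of its sum with the insulin-responsive Slc2a4 (adjusted exact p = 0.0144). MI replicate 2 had the highest share and MI replicate 1 the lowest of the infarcted ventricles, in this pair and in Pfkp, Eno1 and Rpl3. Of respiratory chain subunits, Cox7a2 was 23.8% ± 2.41 in Sham and 36.1% ± 11.7 in MI of its sum with the heart form Cox7a1. Cox8a was 17.8% ± 0.981 in Sham and 29.9% ± 7.47 in MI of its sum with Cox8b. Cox7a2 itself was lower in MI under every alternative fit (log2 differences -0.64 to -0.25), and Cox8a was not called (0.06). Their partners Cox7a1 and Cox8b differed by -1.37 and -0.89. Hk1, a hexokinase, was 29.9% ± 1.32 in Sham and 41.7% ± 1.51 in MI of its sum with Hk2. Acta1, skeletal actin, of Acta1 plus cardiac Actc1, was 9.63, 5.16, 2.80, 1.56 and 0.556% in Sham and 10.1, 9.28, 12.8, 10.4 and 17.0% in MI (adjusted exact p = 0.0244). Sham replicate 1 reached the MI range. Eef1a1, the general elongation factor, was 38.6% ± 5.78 in Sham and 60.2% ± 10.8 in MI of its sum with the muscle form Eef1a2 (adjusted exact p = 0.0244).

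The myosin pair, which shifts towards Myh7 in the stressed mouse heart, differed from Sham in 3 of the 5 infarcted ventricles only. Myh7, the slow myosin of the fetal ventricle, was 1.39, 1.38, 1.5, 1.37 and 0.849% in Sham and 1.43, 15.9, 6.96, 9.62 and 1.19% in MI of Myh7 plus Myh6 (adjusted exact p = 0.112). MI replicates 2, 3 and 4 were high, while replicates 1 and 5 lay in the Sham range. The groups overlapped, and the pair was not called. The pairs of troponin I, tropomyosin and the atrial light chains were not called either, and the Myl4 and Myl7 pairs are those that follow the amount of atrial marker. With the mixed Sham libraries left out, 3 against 5 libraries cannot give an exact p below 0.0179, and 0 of the 20 pairs passed. The MI values of 12 pairs were then still all above Sham, and Rpl3 differed by 51.5 percentage points.

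**Figure D4:**
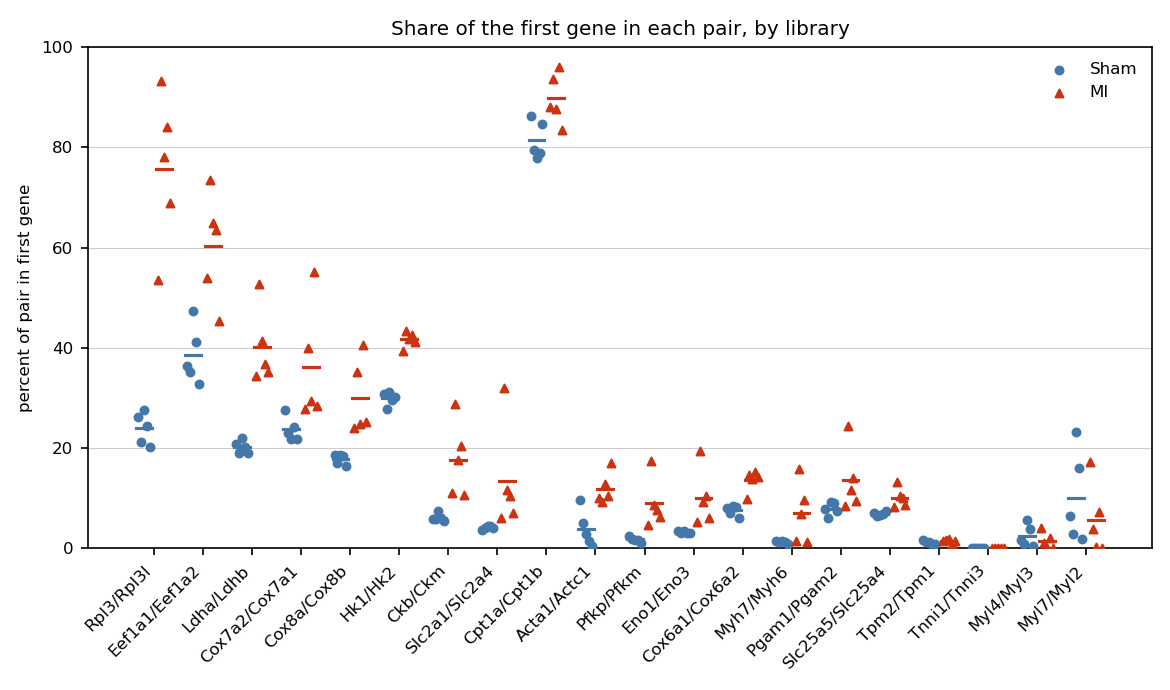
Share of the first gene in the sum of each of the 20 pairs, in percent of FPKM, one point per library, Sham as circles beside MI as triangles, with a bar at each group mean. For Rpl3, Ldha, Pfkp and Ckb all MI points lie above all Sham points, and for Myh7 only MI replicates 2, 3 and 4 do so clearly.

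Some genes crossed 1 FPKM altogether. There were 174 genes under 1 FPKM in all Sham libraries and at 1 or more in all MI libraries, 171 of them protein-coding, and 62 genes with the reverse pattern, 39 of them protein-coding. These genes passed the filter through a single group, so that they differ follows from the filter. Besides Sprr1a, Cthrc1, Trem2, Csf3r, Sele, Cda, Slc16a3, Top2a and Ube2c, the first set held Tnc, tenascin C, from 0.383 to 13.3 FPKM. The reverse set held Inmt, Kcnv2 and Adra1a, described above, and Crybb1, a crystallin that microglia and macrophages also make, at 2.56, 2.24, 1.95, 2.11 and 1.88 FPKM in Sham and 0.680, 0.181, 0.222, 0.291 and 0.276 in MI. The Crybb1 values were tight in Sham and low in MI, with replicate 1 the nearest to Sham. Sfrp5, a secreted Wnt antagonist of the same set, went from 4.36 ± 1.91 to 0.266 ± 0.159 FPKM (log2 difference -1.97 ± 0.29).

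Non-coding genes were called lower more often than higher. Of 167 tested lincRNAs, 17 rose and 76 fell, or 45.5% against 20.8% of all genes, and of 147 antisense genes 8 rose and 45 fell. Of 10945 protein-coding genes, 2376 rose and 2245 fell. These counts include genes that passed the filter through a single group and had to differ. Of the 62 that passed through Sham alone, 39 were protein-coding, and of the 174 that passed through MI alone, 171 were. Lower lincRNAs and antisense genes are thus in part those of the first set. Gm15949, which overlaps another gene, measured 6.44, 7.98, 5.80, 5.99 and 7.00 FPKM in Sham and 0.591, 1.42, 1.45, 0.759 and 1.23 in MI (log2 difference -1.88 ± 0.13 SE, adjusted p = 2.45e-05), the lowest p among the falls. Gm42047, a lincRNA, measured 1.22, 1.22, 2.26, 1.76 and 1.42 FPKM in Sham and 9.45, 6.76, 12.0, 4.09 and 8.34 in MI (log2 difference 1.77 ± 0.22 SE, adjusted p = 0.000156). Both groups were well apart in each gene. Gm15949 is annotated at only 126 bases, so its values rest on few fragments per library. With the strand setting of the counting unknown, fragments of antisense genes and of their partners cannot be told apart. Genes that overlap another annotated gene are uncertain for the same reason. Among those described here they include Ces1d, Nmrk2, Timp1, Gsn, Grn, Ryr2, Pink1, Rbfox1, Ptbp1, Rpl3, Tubb3, Myh6 and Myh7, and the last pair also shares long stretches of sequence.

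The infarcted ventricles differed among themselves more than the sham ventricles did. The median SD of log2 values was 0.219 in MI and 0.114 in Sham, and 82.6% of tested genes had the larger SD in MI. Over the 465 genes at least 2-fold higher, the median difference from the Sham mean was 1.00, 1.65, 1.49, 1.32 and 1.15 in MI replicates 1 to 5. Over the 304 genes at least 2-fold lower it was -0.88, -1.85, -1.40, -1.25 and -1.10. MI replicate 1 was the library nearest to Sham in 218 of the 465 and 173 of the 304 genes, and MI replicate 2 was the farthest in 259 and 217. The genes were chosen on these same libraries, so the sizes describe them only. Infarct size was not among the data used here.

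**Figure D5:**
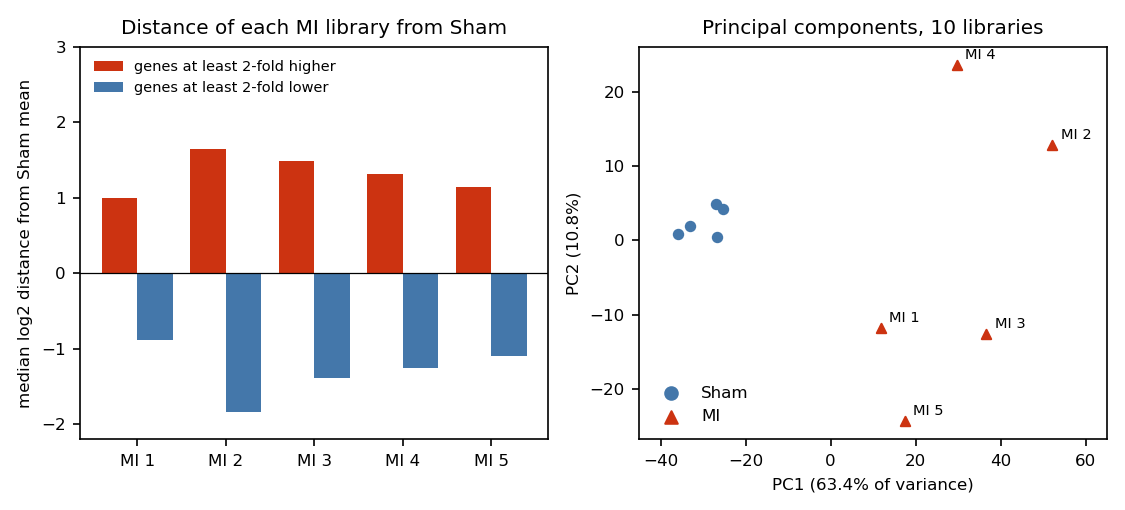
Left, median difference of each MI library from the Sham mean in log2 units, as bars over the genes at least 2-fold higher and at least 2-fold lower in MI; right, the 10 libraries on the first and second principal components of the tested genes, Sham as circles and MI as triangles. MI replicate 2 lies farthest from Sham, with medians of 1.65 and -1.85, and MI replicate 1 nearest, with 1.00 and -0.88, and the Sham libraries lie closer together than the MI libraries.

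Sham libraries also differed in stress genes. The mixed Sham replicates 1 and 2 had the highest Sham values of Nppb, Ankrd1, Acta1, Thbs4, Tnfrsf12a, Xirp2 and Uck2. Other stress genes did not follow this order. Nppa was highest in Sham replicates 4 and 3, Nmrk2 in replicates 1 and 4, and Sprr1a in replicates 2 and 4. Acta1 measured 719, 379, 139.7, 92.4 and 29.6 FPKM in Sham and 697, 526, 959, 1100.1 and 1940.1 in MI, and Sham replicate 1 exceeded MI replicates 1 and 2. Thbs4, a matricellular protein of tendon and of the loaded heart, measured 11.8, 12.6, 7.19, 2.80 and 1.86 FPKM in Sham and 25.2, 87.3, 80.0, 52.2 and 34.2 in MI (log2 difference 2.89 ± 0.48 SE, adjusted p = 0.000829). All MI libraries were above Sham in this gene, and Sham replicate 5 was the lowest. The part of mixing in these levels was not tested. Without both mixed libraries 1879 genes rose and 1705 fell.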

How the data were processed

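The data are 10 poly-A libraries (5 Sham, 5 MI), sequenced as 150 nt paired ends from 1000 ng of RNA of RIN over 8, per the labels' protocols. The authors deposited FPKM values per gene. Per the submitters' processing notes, the tools were HISAT2, featureCounts, DESeq2 and R 3.5.1, with mm10 as the build; annotation and strand setting: not given in the sources used here. Multiplied by gene length, 100% of values were whole numbers of a library's step (tolerance 0.01), which gave the fragments per library. The deposited scale follows a typical gene of each library, not its total.

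Genes with at least 1 FPKM in 5 of the 10 libraries were fitted on log2(FPKM + 1), a pseudocount of 1, in R 4.3.3 with limma 3.58.1 and its empirical Bayes step with a mean trend; calls needed an adjusted p under 0.05 (Benjamini-Hochberg). The script was tested on simulated data. Isoform shares were compared by exact permutation tests. Members and lists were chosen with earlier results of these data known. Genes named are the 15 largest called rises and falls without overlap, the 8 largest in FPKM and 10 of lowest p each way, up to 4 called members per list, members not called with their values, the genes of the pairs and the 3 largest non-coding changes each way. A few genes that this rule selects are not reported here. Bmp10, Mki67, Mcu, Lama5, Egflam and Rara fall outside this rule and were chosen after their values were seen. Alternatives were another pseudocount, other filters, scalings, quantile normalization, voom on recovered fragments, array weights, a replicate block, leaving out each library, and, chosen after seeing the data, the Myl7 covariate and the 5 libraries low in Myl7. Planned motif comparisons between gene sets were not run, because too few promoters could be matched.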

Additional observations from a re-analysis of the deposited data

Results flagged for a closer look

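Among 490 groups of 5 values of the named genes, 18 held a library far from the other 4 of its group, which chance alone gives in about 1 group in 20. In Sham, replicate 3 was high in Ccl8 (8.13 FPKM), Myoc (13.0) and C1qb (62.3) and in the non-coding Ifi30 entry (7.63), and low in mt-Nd4 (10977). Replicate 5 was low in Sfrp5 (1.00), Uchl1 (4.01), Kdelr3 (4.93) and Rpl3 (43.6). Replicate 2 was low in Aqp1 (97.0) and high in Cx3cr1 (2.39). Replicate 1 was low in Icam2 (10.2) and Tyrobp (9.39), and replicate 4 in Cks2 (0.681). In MI, replicate 4 was high in mt-Co1 (66571), mt-Nd1 (20350.3) and mt-Nd5 (12973), the library whose mitochondrial share was at the Sham level, and replicate 1 was high in Crybb1 (0.680).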

How the results depend on the processing

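Of the 229 called genes named, only mt-Co1 and mt-Cytb lost their direction under any alternative (quantile normalization); 198 were called without both mixed Sham libraries and 151 in the 5 libraries low in Myl7. Genes not called in the reported fit that changed sign were Myl4 (0.46), Cox8a (-0.062) and Slc25a5 (-0.039) with the Myl7 covariate and Cpt1a (-0.035) in the low-Myl7 libraries. With the covariate, Myl4 was called higher in MI (adjusted p = 0.0476 in limma). Tpm1 (0.025) changed sign without mitochondrial genes. Leaving out 1 library in turn gave Cpt1a -0.025 to 0.12, Pgam2 -0.30 to 0.10, Cox8a -0.036 to 0.13 and Slc25a5 -0.012 to 0.16, and Cox8a was -0.032 without both mixed Sham libraries. Quantile normalization gave mt-Co1 0, mt-Cytb 0.067, Myl3 0.32, Tpm1 0.43, Pgam2 0.24 and Slc25a4 0.16. Under it, Myl3 and Tpm1 were called higher in MI (adjusted p = 0.041 and 0.0035 in limma). The low-Myl7 libraries gave 1081 rises and 821 falls. A pseudocount of 0.1 gave 757 rises and 516 falls of at least 2-fold, and voom 789 and 536; both lift the understated change of low genes. Isoform pairs called numbered 0 without both mixed Sham libraries, and 11 to 17 without 1 library. Without 1 library, 2118 to 2581 genes rose and 1962 to 2773 fell. The cause of the other changes was not tested.

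The replicate numbers did not pair the samples (correlation of deviations -0.094, -0.055, 0.021, -0.050 and 0.225). A fit with the replicate block gave 2245 rises and 2185 falls, with 2187 and 2130 of the reported calls kept. At 21.5 M to 26.8 M fragments, genes under 1 FPKM in most libraries were not tested.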
